A study of Papio anubis with 3 samples.

Results

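Isolated H4K20me3 peaks are peaks of trimethylated lysine 20 of histone H4 that stand alone along a chromosome. They were taken from the H4K20me3 peak list of baboon neural progenitor cells as the peaks on the 20 autosomes with no other H4K20me3 peak within 50 kb on either side. The rule found 1390 peaks, which is 14.3% of the 9718 autosomal peaks (exact 95% interval 13.6 to 15.02) in a list of 10000. A further 15 peaks on chromosome X stood alone by the same distance and were left out by the rule. The members were chosen by their positions in the H4K20me3 list, so their number, spacing, width and fold are given as a description with no test. The H3K27me3 list was not used by the rule, but the rule bears on H3K27me3 peaks that overlap H4K20me3 peaks.

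The cells came from the subventricular zone of 1 adult Papio anubis brain, freshly dissected and dissociated, with no treatment given in the labels. They were captured on beads carrying antibodies to progenitor or neuroblast proteins (GFAP, Nestin, Vimentin, PSA-NCAM or Doublecortin are the examples given), and the labels do not say which antibody served which library. Chromatin immunoprecipitation sequencing (ChIP-seq) with antibodies to H4K20me3 and to H3K27me3 gave 1 library and 1 peak list for each mark, and total H3 and total H4 chromatin was taken for normalization. Since each mark has a single library, no value has a replicate error, peaks of a library are not replicates, and no p-value is given.

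H4K20me3 is placed by the SUV420H methyltransferases, which are brought to chromatin that already carries H3K9me3 and HP1, and it is known as a mark of constitutive heterochromatin such as satellite and other repeats. H3K27me3 is placed by Polycomb repressive complex PRC2 and is known for silencing developmental genes in stem and progenitor cells. The usual picture of H4K20me3 is one of wide domains, so peaks that stand alone are the opposite end of its distribution. The peak lists name papAnu2 as their genome, and positions below are counted from 1 on that build. No genome or gene annotation of papAnu2 was used here, so the peaks are given without their sequence, nearest gene or repeat class, and the labelled cell type was not checked against marker genes.

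Most isolated peaks were short, of modest enrichment and alike. Their median width was 243 bp (95% interval 241 to 246), with quartiles of 218 and 286 bp and a range of 213 to 1855 bp. The autosomal H4K20me3 peaks with a neighbour within 50 kb had a median width of 308 bp (304 to 313) and quartiles of 240 and 461 bp. The lowest width in the whole list was 213 bp, and 428 of the 1390 isolated peaks (30.8%, 28.4 to 33.3) lay within 10 bp of it, against 17.4% of all autosomal peaks. Widths under 300 bp were found in 1095 isolated peaks (78.8%) and in 3994 of the 8328 peaks with a neighbour (48.0%). Only 15 isolated peaks (1.08%) reached 1000 bp, against 395 (4.74%) of those with a neighbour. Together the isolated peaks covered 393 kb, or 10.1% of the autosomal length under H4K20me3 peaks.

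The fold over control is the authors' value for each peak at its summit. It had a median of 3.61 at isolated peaks (3.57 to 3.63, quartiles 3.30 and 3.98, range 1.52 to 6.32). At peaks with a neighbour the median was 3.92 (3.90 to 3.94) and the highest 9.29. A -log10 q of at least 5 was reached by 294 isolated peaks (21.2%, 19.03 to 23.4), against 44.0% of all autosomal peaks. The summit lay near the middle of the peak, at a median of 48.9% of its width from the start.

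**Figure D1:**
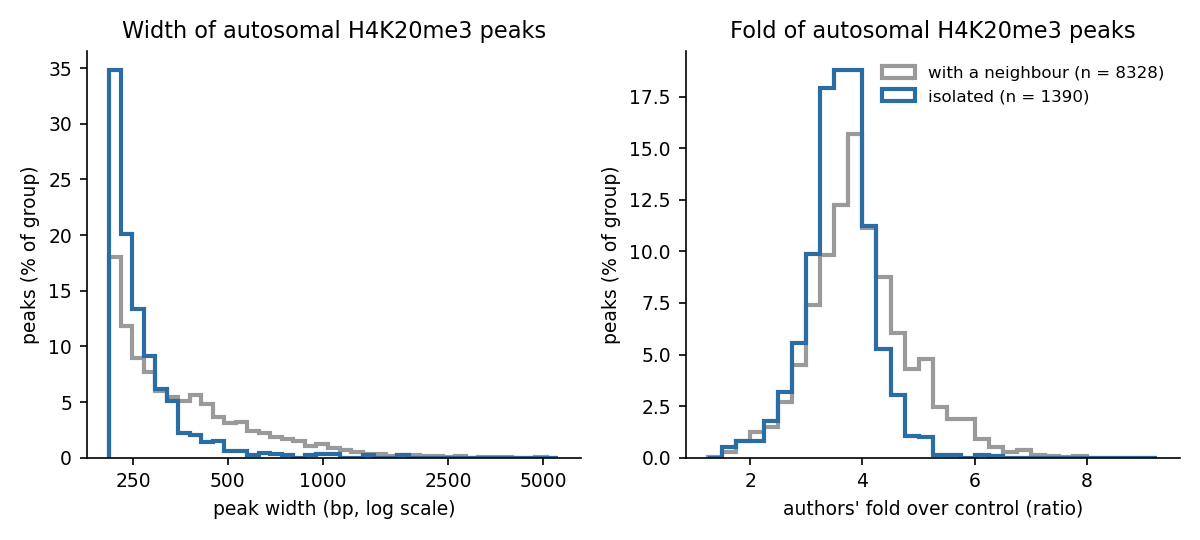
Width (left, log scale, bp) and the authors' fold over control (right, a ratio) of autosomal H4K20me3 peaks, each as a percent of its group. The 1390 isolated peaks (blue) pile up at the lowest widths, with a median of 243 bp, and few exceed a fold of 5, while the 8328 peaks with a neighbour (grey) have a longer tail in both.

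The depth behind these peaks can be read from the list itself. The ChIP pileup (fragments stacked at the summit) and the control pileup (the value the peak caller set against it) were solved from the fold and p-value of each peak, and every ChIP pileup came out whole within 0.02. The lowest control pileup in the list was 3.50. Peaks above 2 times this value (7.00) are called deep in control here and the others ordinary. Of the isolated peaks, 1265 were ordinary and 125 (8.99%, 7.54 to 10.6) were deep, against 14.4% deep among all autosomal peaks. Of the 294 isolated peaks of -log10 q of at least 5, 30.3% were deep. The share among all autosomal peaks at that limit is not given here.

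The ordinary isolated peaks rested on few fragments. Their median ChIP pileup was 18 (range 13 to 30) over a median control of 3.99, and 944 of the 1265 (74.6%) had a pileup of 16 to 20. A pileup over 20 was found in 184 of them (14.5%, 12.6 to 16.6), against 2976 of the 7055 ordinary peaks with a neighbour (42.2%, 41.0 to 43.3). At the same pileup the widths of isolated and neighbouring peaks were close where the pileup was low and apart where it was high. At a pileup of 16 to 17 the median width was 234 bp (230 to 239) for 422 isolated peaks and 242 bp (239 to 244) for 1269 with a neighbour. At 18 to 20 it was 243 bp (239 to 246) and 276 bp (272 to 282), and at 21 to 25 it was 262.5 bp (249 to 271) for 178 isolated peaks and 369 bp (359 to 379) for 2089 with a neighbour. Across the 1265 ordinary isolated peaks, which share a library, width and pileup were weakly related (Pearson's r 0.21, Spearman's rho 0.21).

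The isolated peaks of highest fold had ordinary control in 4 of 5 cases and were spread over 4 chromosomes. The highest fold was 6.32 at a 385 bp peak on chromosome 12 (18753234 to 18753618), where 28 fragments stood over a control of 3.59. The second, with a fold of 6.25, was a 736 bp peak on chromosome 5 (128806288 to 128807023). It was the 1 of the 5 that was deep in control, with a pileup of 65 over 9.57. A fold of 6.22 was listed for a 359 bp peak on chromosome 4 (120704992 to 120705350), which lay 63.4 kb from the next H4K20me3 peak. A fold of 5.55 was shared by a 312 bp peak on chromosome 2 (121984365 to 121984676) and a 277 bp peak on chromosome 12 (50712092 to 50712368). None of the 5 overlapped H3K27me3, and the nearest H3K27me3 peak was 1077 to 5996 kb away.

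The widest isolated peaks were of another kind. All 5 were deep in control and overlapped H3K27me3, with folds of 2.83 to 3.33 below those just named. They measured 1855 bp on chromosome 7 (100733176 to 100735030), 1841 bp on chromosome 6 (146802923 to 146804763), 1773 bp on chromosome 2 (29895388 to 29897160), 1738 bp on chromosome 12 (47664871 to 47666608) and 1446 bp on chromosome 4 (117959468 to 117960913). Their control pileups ranged from 58.2 to 83.7 and their ChIP pileups from 196 to 249. Of the 15 isolated peaks of at least 1000 bp, 12 overlapped H3K27me3 (80.0%, 51.9 to 95.7), against 72 of the 395 such peaks with a neighbour (18.2%, 14.5 to 22.4). Both counts are over all 20 autosomes, 4 of which have no H3K27me3 peaks. Of peaks of any width, 1300 of 1390 isolated peaks and 5175 of 8328 with a neighbour lie on the other 16. The groups are not matched for control pileup in this comparison.

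By number of sites, standing alone was the common case. When autosomal H4K20me3 peaks no more than 50 kb apart were joined, 1959 loci resulted, of which 1390 (71.0%, 68.9 to 73.0) were single peaks and 569 held more than 1. The median distance from an isolated peak to the next H4K20me3 peak was 195 kb (176 to 214), with quartiles of 95.1 and 550.1 kb. The nearest other peak was itself isolated for 1042 of the 1390 (74.96%). It lay under 100 kb away for 381 (27.4%) and at 1000 kb or more for 207 (14.9%). The 50 kb limit fell within a continuous range of distances. The 3 peaks just inside it had distances of 50.068, 50.482 and 50.482 kb (the last pair being each other's neighbours on chromosome 5), with folds of 3.55, 4.12 and 4.01. The 3 just outside had 49.632, 49.491 and 49.442 kb, with folds of 4.01, 3.65 and 3.61.

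The loneliest peak was a 214 bp peak on chromosome 10 (75110559 to 75110772) with a fold of 3.55, which lay 16.6 Mb from the next. It was the last H4K20me3 peak of its chromosome, so its other side had no peak to measure. Peaks on chromosomes 17 (81633789 to 81634179, fold 2.94) and 12 (87035838 to 87036076, fold 3.81) were also last on theirs and lay 11.2 and 10.9 Mb from the next. A 213 bp peak on chromosome 8 (126136286 to 126136498, fold 3.43) had empty stretches of 10.8 and 11.2 Mb on its sides. One of 550 bp on chromosome 1 (14532232 to 14532781, fold 2.21) had 10.1 and 20.7 Mb, was deep in control and overlapped H3K27me3. In all, 29 isolated peaks were the first or last of their chromosome.

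The number of isolated peaks followed chromosome size more than the number of all H4K20me3 peaks did, a contrast that the rule itself helps to set. Over the 20 autosomes the number of isolated peaks and the span of the chromosome (the largest peak end in either list) had a Pearson's r of 0.84 and a Spearman's rho of 0.91. For all H4K20me3 peaks these were -0.09 and 0.35. This is a description over 20 chromosomes of 1 library. The rule leaves out groups of close peaks, which weigh on the count of all peaks. Chromosome 19, for example, has 2630 peaks, of which 19 were isolated. The number of loci was not set against span. The mean density was 0.552 isolated peaks per Mb of span, or 0.573 per Mb of the part that lay more than 50 kb from a locus of several peaks, which was 96.4% of the span.

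Chromosome 5 was the densest, with 178 isolated peaks or 0.996 per Mb. It held 12.8% of all isolated peaks (11.1 to 14.7) against 7.10% of the span, and 50.7% of its own H4K20me3 peaks stood alone. Their median fold was 3.76, and 6 were deep in control. Chromosome 6 followed with 141 isolated peaks, or 10.1% (8.61 to 11.9) against 6.91% of the span. The sparsest was chromosome 10 with 12 isolated peaks, or 0.863% (0.447 to 1.503) against 3.51%, and 5 of the 12 were deep in control. Chromosome 16 held 16, or 1.15% (0.659 to 1.86) against 2.64%.

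The share of a chromosome's peaks that stood alone varied more widely than their density. It was highest on chromosomes 12 (46 of 78, 59.0%), 5, 18 (38 of 77, 49.4%) and 4 (107 of 253, 42.3%). It was lowest on chromosome 19, where 19 of 2630 peaks (0.722%, 0.435 to 1.13) were isolated, and on chromosome 20, with 17 of 475 (3.58%). Chromosome 19 thus held 1.37% of the isolated peaks (0.825 to 2.13) on 2.02% of the span. This share was 5.88% (3.94 to 8.39) when peaks under a -log10 q of 5 were left out before isolation was scored, which is above its part of the span, and 2.38% when they were left out afterwards. Of its 19 isolated peaks 5 were deep in control, while none of the 38 on chromosome 18 and none of the 17 on chromosome 20 were.

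**Figure D2:**
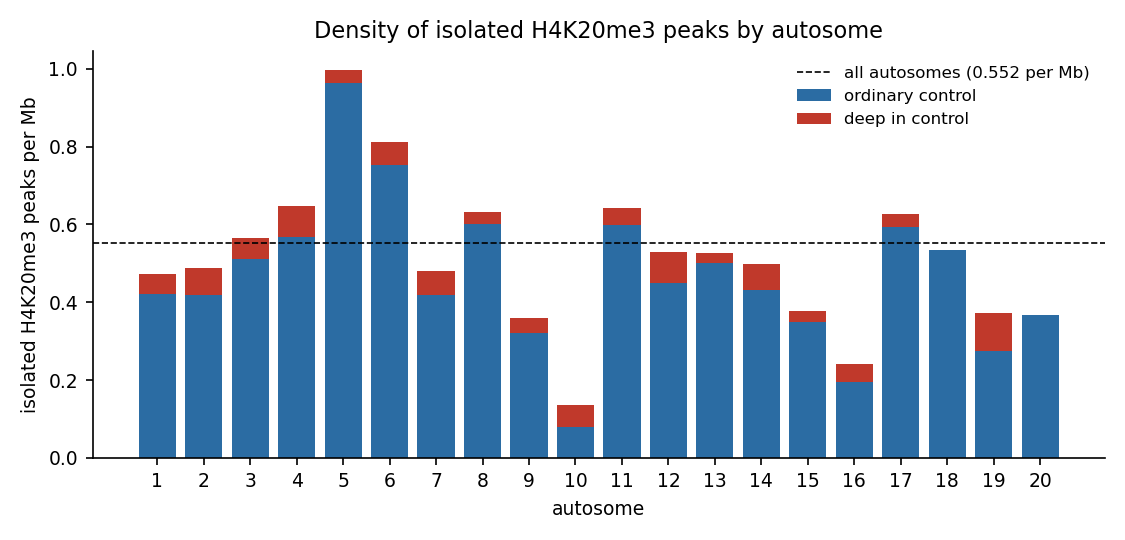
Isolated H4K20me3 peaks per Mb of span on each autosome, split into peaks of ordinary control (blue) and peaks deep in control (red); the dashed line is the density over all autosomes, 0.552 per Mb. Chromosome 5 reaches 0.996 per Mb and chromosome 10 stays at 0.136 per Mb.

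The isolated peaks were unevenly spread. In 242 full stretches of 10 Mb over all autosomes the median was 4 isolated peaks, the mean 5.60 and the variance 24.3, which is 4.34 times the mean, and 19 of the stretches held none. Within the 13 autosomes that have at least 10 full stretches, the variance was 2.38 to 5.91 times the mean. The fullest stretch was 20 to 30 Mb of chromosome 6 (20000001 to 30000000), with 29 isolated peaks of median fold 3.56. The next were on chromosome 5 (60000001 to 70000000, 26 peaks of median fold 3.87, and 120000001 to 130000000, 21 peaks of median fold 3.88) and chromosome 1 (100000001 to 110000000, 20 peaks of median fold 3.28). The stretch on chromosome 6 held 111 H4K20me3 peaks in all and the first on chromosome 5 held 56. The 10 fullest stretches held 203 isolated peaks (14.6%). None of the 29 and none of the 26 was deep in control or overlapped H3K27me3.

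The second question was how far isolated H4K20me3 peaks lie from H3K27me3. The H3K27me3 list has 616 autosomal peaks on 16 autosomes and none on chromosomes 16, 18, 19 and 20, so the 90 isolated peaks there have no distance. The other 1300 mostly lay far from H3K27me3, and those near it mostly overlapped it. Direct overlap by at least 1 bp was found for 60 (4.62%, exact 95% interval 3.54 to 5.90), against 4.45% of all H4K20me3 peaks on these autosomes. Over all 20 autosomes the share was 4.32%, against 2.96%. With loci counted once, 51 of the 504 loci of several peaks overlapped H3K27me3 (10.1%, 7.63 to 13.1), and 9 of the 253 loci of 2 peaks did (3.56%, 1.64 to 6.65). With a -log10 q of at least 5 required before or after isolation was scored, the overlap of isolated peaks over all autosomes was 13.0% and 19.4%. Next to none lay close by without touching. An H3K27me3 peak within 50 kb but not overlapping was found for 14 (1.08%, 0.590 to 1.80), against 832 of the 5175 peaks with a neighbour (16.1%, 15.1 to 17.1). The rule itself helps to set this contrast. An H3K27me3 peak that overlaps another H4K20me3 peak would usually end a member's isolation at this distance. Of the 616 autosomal H3K27me3 peaks, 210 overlap an H4K20me3 peak. Peaks with a neighbour are under no such limit. Counting overlaps, 90 of the 1390 isolated peaks (6.47%) had H3K27me3 within 100 kb, against 15.7% of all autosomal H4K20me3 peaks. With the same limits on -log10 q this share was 15.1% and 21.8%. Neither the overlap nor this share is given for all autosomal H4K20me3 peaks at these limits. The shares over all peaks named here are without a limit on -log10 q and are no background for them. The comparisons within 50 and 100 kb count each peak, though peaks with a neighbour share loci and are not independent. Shares by locus were not computed at these limits. The 10th percentile of the distance, overlaps included, was 255 kb at isolated peaks, 292 kb at loci of 2 peaks and 0.0318 kb at all loci of several peaks.

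The remaining isolated peaks were megabases away. The median distance over the 1300 was 3078 kb (2807 to 3319), with quartiles of 1177 and 5938 kb and a maximum of 22777 kb. It was 6568 kb against H3K27me3 peaks of ordinary control alone, and 1854 kb for the isolated peaks of -log10 q of at least 5. Peaks with a neighbour had a median of 389 kb (364 to 425). Many of these share a locus and with it their distance. With 1 value for each of the 504 loci of several peaks, the nearest peak being used, the median was 2277 kb (1845 to 2675), and for the 253 loci of 2 peaks it was 3102 kb (2477 to 3514). The distance at isolated peaks was thus close to that at loci of 2 peaks, and its gap to peaks with a neighbour was much smaller when loci were counted once.

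**Figure D3:**
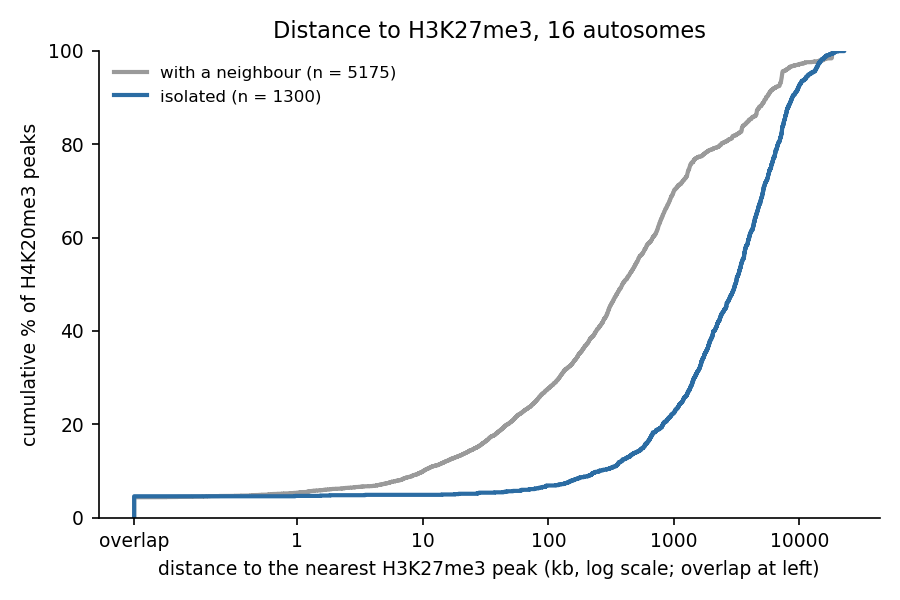
Cumulative percent of H4K20me3 peaks by distance to the nearest H3K27me3 peak (kb, log scale, overlapping peaks at the left end) on the 16 autosomes with H3K27me3 peaks. Each peak is counted, and many peaks with a neighbour share a locus. The rule itself helps to keep isolated peaks away from H3K27me3 peaks that overlap another H4K20me3 peak. Both curves start at 4.41 to 4.62%; the isolated peaks (blue, n = 1300) then stay nearly flat up to 100 kb, where 6.92% are counted, while the peaks with a neighbour (grey, n = 5175) reach 27.7%.

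All 60 isolated peaks that overlapped H3K27me3 were deep in control. Their control pileups ranged from 27.1 to 169.8 with a median of 65.6, and their ChIP pileups from 58 to 425. None of the 1183 ordinary isolated peaks on these autosomes overlapped, which allows a share of up to 0.254% (3 counts, counting error only). None of the 4219 ordinary peaks with a neighbour overlapped either (up to 0.0711%). Of the 117 isolated peaks deep in control on these autosomes, 60 overlapped (51.3%, 41.9 to 60.6), against 26.8% of all deep H4K20me3 peaks there. Deep isolated peaks had a higher median control pileup (40.7) than deep peaks with a neighbour (11.6).

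Compared at the same control pileup, the overlap shares of isolated and neighbouring peaks were close. Between 2 and 4 times the lowest control, 0 of 35 isolated peaks (which allows up to 8.57%) and 6 of 542 with a neighbour (1.11%, 0.407 to 2.39) overlapped. Between 4 and 8 times the shares were 2 of 12 (16.7%, 2.09 to 48.4) and 29 of 159 (18.2%, 12.6 to 25.1). Between 8 and 16 times they were 20 of 29 (69.0%, 49.2 to 84.7) and 77 of 122 (63.1%, 53.9 to 71.7). Above 16 times they were 38 of 41 (92.7%, 80.1 to 98.5) and 116 of 133 (87.2%, 80.3 to 92.4). The intervals of isolated and neighbouring peaks overlapped in each of these ranges, and with 12 to 41 isolated peaks in each they are wide. What deep control coverage contributes to the overlap was not tested.

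**Figure D4:**
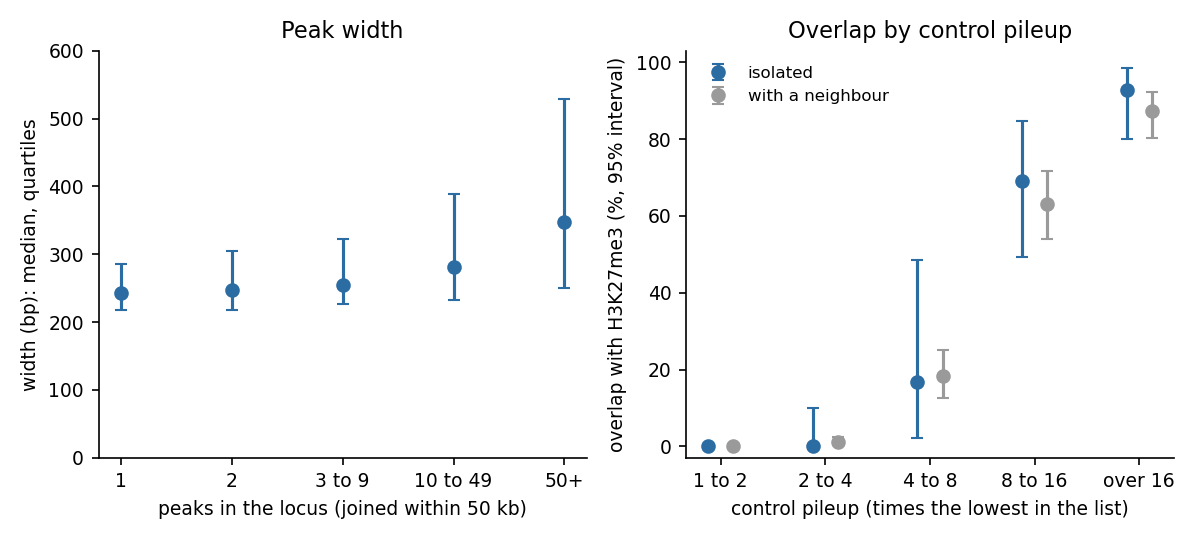
Left, median width with quartiles (bp) of autosomal H4K20me3 peaks by the number of peaks in their locus, rising from 243 bp at single peaks to 347 bp in loci of at least 50. Right, percent of H4K20me3 peaks overlapping H3K27me3 by control pileup, in multiples of the lowest, for isolated peaks (blue) and peaks with a neighbour (grey), with exact 95% intervals; both rise from 0 in the lowest range to 92.7% and 87.2% in the highest, and their intervals overlap in each range.

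The 60 overlapping isolated peaks were wide, at a median of 580 bp (496 to 761), with a median fold of 2.60 and a median -log10 q of 24.5. The 1240 isolated peaks on the same autosomes without overlap had 242 bp, 3.62 and 3.57. The lower folds and higher -log10 q values stood at larger pileups, with a median ChIP pileup of 176.5 against 18. The 57 deep isolated peaks without overlap lay between, with a median width of 271 bp, a fold of 2.76 and a control pileup of 11.2. At or above the lowest control pileup of an overlapping peak (27.1), 60 of the 72 isolated peaks on these autosomes overlapped, so peaks with and without overlap lay side by side there in the plot of fold against control.

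**Figure D5:**
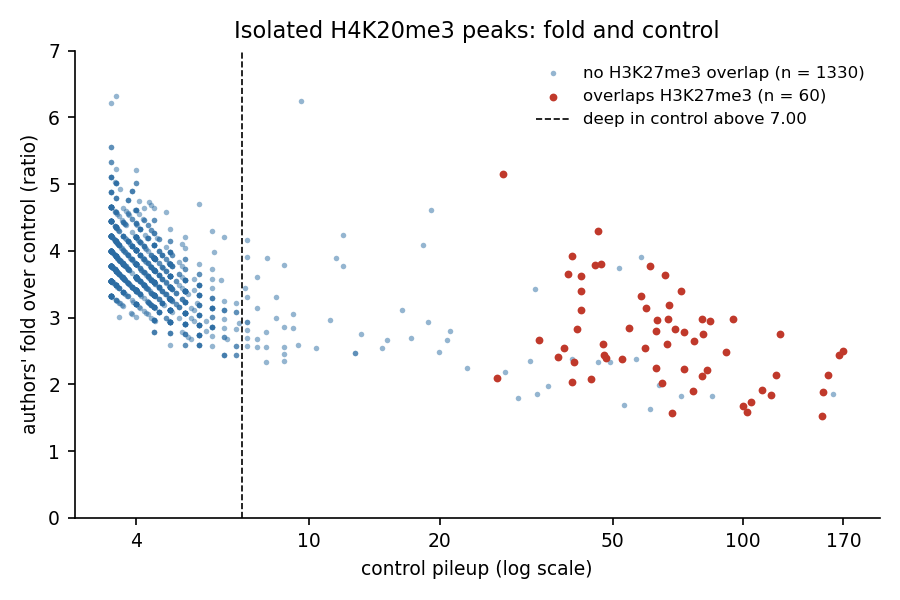
Authors' fold over control against control pileup (log scale) for the 1390 isolated H4K20me3 peaks, with the 60 that overlap H3K27me3 in red and the limit of 7.00 dashed. All red points lie at control pileups of 27.1 or more, and the highest folds lie at the left among peaks with no overlap.

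Each of the 60 isolated peaks overlapped an H3K27me3 peak of its own, so 60 distinct H3K27me3 peaks were involved, on all 16 autosomes. They make up 28.6% of the 210 autosomal H3K27me3 peaks that overlap H4K20me3. The peak calls of the lists coincided closely at these sites. The H3K27me3 peak lay wholly inside the H4K20me3 peak in 51 of 60, the H4K20me3 peak was the wider in 53, and the overlap covered at least 68.6% of the shorter peak. The H3K27me3 peaks had a median width of 395.5 bp (range 243 to 1666) and a median fold of 1.77 (1.37 to 2.89). H3K27me3 folds here and below come from a broad-peak list without summits, so they are not directly comparable with the H4K20me3 folds. All 60 H3K27me3 peaks were deep in the control of their own list too (median control pileup 58.3), against 313 of all 616 autosomal H3K27me3 peaks. The lowest of the 60, at 10.4, lay at the limit, and these values are approximate in a broad-peak list. The H3K27me3 partner had no other H3K27me3 peak within 50 kb in 57 of 60, so the sites mostly stood alone in both lists. Among all 616 autosomal H3K27me3 peaks, 218 had no other within 50 kb. The rule helps to set this contrast too. Another H3K27me3 peak nearby that overlapped a second H4K20me3 peak would usually end the isolation, and the 616 are under no such limit. Across the 60 sites the control pileups of the lists were related (Pearson's r 0.79 on the log2 scale, Spearman's rho 0.77), as were the widths (0.72 and 0.70), while the folds were not clearly so (-0.12 and -0.06). These are descriptions over sites that share their libraries and were paired by overlap, which ties the widths. Whether the lists share a control library, which would tie the control pileups, is not given.

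Among the overlapping isolated peaks, the highest H4K20me3 fold was 5.15 at a 761 bp peak on chromosome 5 (46639992 to 46640752), with a control pileup of 27.9. Its H3K27me3 partner (46640257 to 46640573) was 317 bp wide with a fold of 1.92. The next were a 993 bp peak on chromosome 17 (2819962 to 2820954, fold 4.30, H3K27me3 fold 1.82) and a 1103 bp peak on chromosome 11 (35547913 to 35549015, fold 3.93, H3K27me3 fold 1.99). The other 7 of the top 10 had H4K20me3 folds of 3.40 to 3.81 and widths of 518 to 1111 bp. They lay on chromosomes 2 (2198030 to 2199138), 3 (167817491 to 167818160), 4 (154054231 to 154054932), 5 (134527332 to 134528256), 6 (158516494 to 158517604 and 173690333 to 173691359) and 12 (31446202 to 31446719). The isolated peaks of deepest control had lower folds. One on chromosome 7 (25661240 to 25661873, 634 bp) had a control pileup of 169.8 and a fold of 2.49, and one on chromosome 3 (1104181 to 1104862, 682 bp) had 165.8 and 2.45. Both overlapped H3K27me3, whose folds there were 1.45 and 1.45. The third, on chromosome 19 (1972633 to 1973177, 545 bp), had 160.7 and 1.86 and lies on a chromosome without H3K27me3 peaks.

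The 5 isolated peaks nearest to H3K27me3 without touching it were 225 to 576 bp wide. A 237 bp peak on chromosome 6 (106264379 to 106264615, fold 2.80) had an H3K27me3 peak at 0.959 kb, and a 225 bp peak on chromosome 15 (4951951 to 4952175, fold 2.48) had one at 1.53 kb. Next came a 318 bp peak on chromosome 6 (122454034 to 122454351, fold 3.92) at 1.82 kb, a 249 bp peak on chromosome 14 (79817360 to 79817608, fold 1.63) at 3.46 kb and a 576 bp peak on chromosome 10 (56640866 to 56641441, fold 2.79) at 14.2 kb. Of these 5, the 318 bp peak alone had ordinary control. Within 100 kb and without overlap there were 30 isolated peaks, of which 20 were ordinary, with a median width of 251.5 bp and a median fold of 3.36.

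Isolated peaks were close in width and fold to peaks in the smallest groups. Loci of 2 peaks (272 loci, 544 peaks) had a median width of 247 bp and a median fold of 3.58, and 8.82% of their peaks were deep in control, against 8.99% of isolated peaks. In loci of 3 to 9 peaks the median width was 255 bp, in those of 10 to 49 it was 282 bp, and in those of at least 50 it was 347 bp with a median fold of 4.08. With ordinary control alone the order of widths was the same, from 241 bp at single peaks through 244, 248.5 and 274 bp to 335.5 bp. The share of peaks deep in control did not follow this order and was highest, at 29.5%, in loci of 10 to 49 peaks.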

How the data were processed

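The samples are 1 H3K27me3, 1 H4K20me3 and 1 total H4 library, and the 2 deposited peak lists were used. Bowtie 1.1.1 and MACS2 2.1.0.20140616 were used by the authors, per the submitters' processing notes, with parameters not given in the sources used here. The lists have MACS2's broad (H3K27me3) and narrow (H4K20me3) layouts. The control used for each list, the pooling of sequencing runs and the treatment of multiply mapping reads are not given in the sources used here. Each deposited list gives a fold over control (a ratio), a -log10 p and -log10 q value, and a score derived from the q-value, which was not used. The largest q was 0.0482 for H4K20me3 and 0.0963 for H3K27me3.

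Control pileups were solved from fold = (ChIP pileup + 1) / (control pileup + 1) and a Poisson upper tail. These are not raw fragment counts. ChIP pileups came out whole (within 0.02) for 100% of H4K20me3 and 5.78% of H3K27me3 peaks, so the latter's control values are approximate. On 2000 simulated H4K20me3-like peaks the largest error was 0.00128%, which covers rounding only. Read totals were not used, so library depth is unknown.

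Distances are bases between nearest edges. Shares carry exact (Clopper-Pearson) 95% intervals, medians carry exact order-statistic intervals, and a count of 0 allows 3 counts. All cover counting error only, and peaks are not independent. The regions named were the 5 isolated peaks of highest fold, the 5 widest, the 5 farthest from another H4K20me3 peak and the 5 nearest to H3K27me3 without overlap. Also named were the 10 overlapping peaks of highest fold, the 3 of deepest control and the 3 on each side of the 50 kb limit. The 10 Mb stretches, loci of several peaks and ranges of control pileup were added later. The members and all these choices were made with earlier results of these data known. Python 3.11.15, numpy 2.4.6, scipy 1.17.1, pandas 2.3.3 and matplotlib 3.10.9 were used.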

Additional observations from a re-analysis of the deposited data

How the results depend on the processing

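With 1 library per mark no value below has a replicate error, and shares and medians are judged against the 95% interval of the reported value and the number of peaks against 1.5 times. No paired analysis was possible because each mark has 1 library and no test was made. Of 53 alternative values 24 stayed within these limits and 29 moved beyond them. A change of direction was not scored. Distances of 25 or 100 kb to the next peak moved only the isolated share of autosomal peaks (17.9% and 10.4%). A -log10 q of at least 5, taken before isolation, left 476 isolated peaks, or 11.1% of the 4272 autosomal peaks at that limit. These 476 had a median width of 287 bp, a median fold of 4.36 and a median distance to H3K27me3 of 2054 kb. Of these, 13.0% overlapped H3K27me3, 15.1% had it within 100 kb, 23.1% were deep in control and 5.88% lay on chromosome 19. Taken after isolation, it left 294 (6.88% of the same 4272, 286.5 bp, fold 4.29, 1854 kb). Of the 294, 19.4% overlapped, 21.8% had H3K27me3 within 100 kb, 30.3% were deep and 2.38% lay on chromosome 19. These shares are not given for all autosomal peaks at that limit. Without peaks deep in control, 15.2% of the 8320 autosomal peaks left were isolated. The isolated ones had a median fold of 3.64, an overlap of 0% and 1.58% within 100 kb of H3K27me3. Against H3K27me3 peaks of ordinary control alone, the median distance was 6568 kb, the overlap 0% and the share within 100 kb 1.01%. A limit of 1000 kb in place of 100 kb gave 21.1%, and a control limit of 3 times the lowest called 6.91% of isolated peaks deep. Ordinary isolated peaks rest on ChIP pileups of 13 to 30, and library depth is unknown.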

Other observations

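Isolated H4K20me3 peaks were fewer toward the ends of the chromosome spans. With each span divided into 10 equal parts, the first and the last 2 held 6.69%, 5.68% and 6.47% of the 1390 isolated peaks, while the fourth to the seventh held 11.8% to 13.6% each. The span ends at the last peak of a chromosome in either list, so its end is itself set by a peak. The same division was not made for all autosomal H4K20me3 peaks or for loci. Whether this spread is particular to isolated peaks is therefore not known. Within 1000 kb of position 1 lay 6 isolated peaks on 5 chromosomes, of which 2 were deep in control, and 108 autosomal H4K20me3 peaks with a neighbour.

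Isolated peaks were more frequent around the larger H4K20me3 clusters than elsewhere. Within 1000 kb of 1 of the 89 autosomal clusters of at least 10 peaks lay 111 isolated peaks (7.99%, exact 95% interval 6.61 to 9.54), against 3.73% of the span more than 50 kb from any locus of several peaks. These shares pool all autosomes, whose densities of isolated peaks ranged from 0.136 to 0.996 per Mb. The same share is not given for small loci of several peaks. Whether the pattern is particular to isolated peaks is therefore not known. Both patterns were noticed in these data, neighbouring peaks are not independent, and neither was tested.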
